A study of Mus musculus with 6 samples.

Results

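Cholesterol synthesis and its control by the sterol regulatory element-binding proteins (SREBPs) were followed through 28 genes. These were chosen by name for their known roles from the 28812 gene rows of one expression table. The choice was made with earlier results of these data known, so their counts beside all genes are not an independent test. The 28 comprised 8 genes of the early, mevalonate steps, 12 of the late, sterol steps, 5 SREBP regulators and 3 genes of sterol transport. The libraries were poly(A) RNA from mouse chondrocytes, the cells of cartilage, of genotype wt and with the disease state given as OA (osteoarthritis). The extraction protocol speaks of an adipose type, while every sample is labelled as chondrocytes. All 6 samples had received IL-1β, an inflammatory cytokine, so no library without IL-1β entered the comparison. In 3 libraries the other treatment was vehicle and in 3 it was mitochondria, which the title of the series ascribes to osteocytes, the resident cells of bone. Age, strain, time, dose and the number of animals or cultures were not given in the sources used here, so the p-values measure the spread between these libraries, which may be technical.

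Cells make cholesterol from acetyl-CoA by way of mevalonate, isoprenoid diphosphates, squalene and lanosterol. When sterols in the endoplasmic reticulum are low, SCAP carries SREBPs to the Golgi, where they are cut to release transcription factors. When sterols are high, INSIG proteins hold SCAP back, and the genes of the pathway are transcribed less. INSIG1 is itself an SREBP target, and the pathway also supplies chondrocytes with membrane cholesterol and with lipid groups for proteins.

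With mitochondria, 14 of the 28 genes fell, 2 rose and 12 did not pass the test. The 20 enzymes of the pathway included 11 of the 14 that fell, among them Idi1, Cyp51, Msmo1 and Hmgcs1 by 2.75-fold to 4.43-fold. Insig1 fell 2.93-fold, Insig2 rose 1.34-fold and Srebf2 fell by 0.41 on the log2 scale, while Scap and Srebf1 did not pass. Fold changes and adjusted p-values came from edgeR's quasi-likelihood test on the deposited counts of all 17290 genes with enough reads, with Benjamini-Hochberg adjustment and a threshold of 0.05. All 28 genes were among those tested. Over all genes tested, 8.46% were called lower (1463 genes) and 6.36% higher (1099 genes), with a median log2 fold change of 0.003. The median over the 28 genes was -0.49.

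Levels below are CPM (counts relative to library size), scaled with the trimmed mean of M-values (TMM). The groups did not overlap, with every mitochondria library below every vehicle library, in 19 of the 28 genes, against 20.9% of all genes tested. In the other direction 2 of the 28 did not overlap, against 19.8% of all genes. In bulk RNA, fewer cells of a type and less RNA per cell cannot be told apart.

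**Figure D1:**
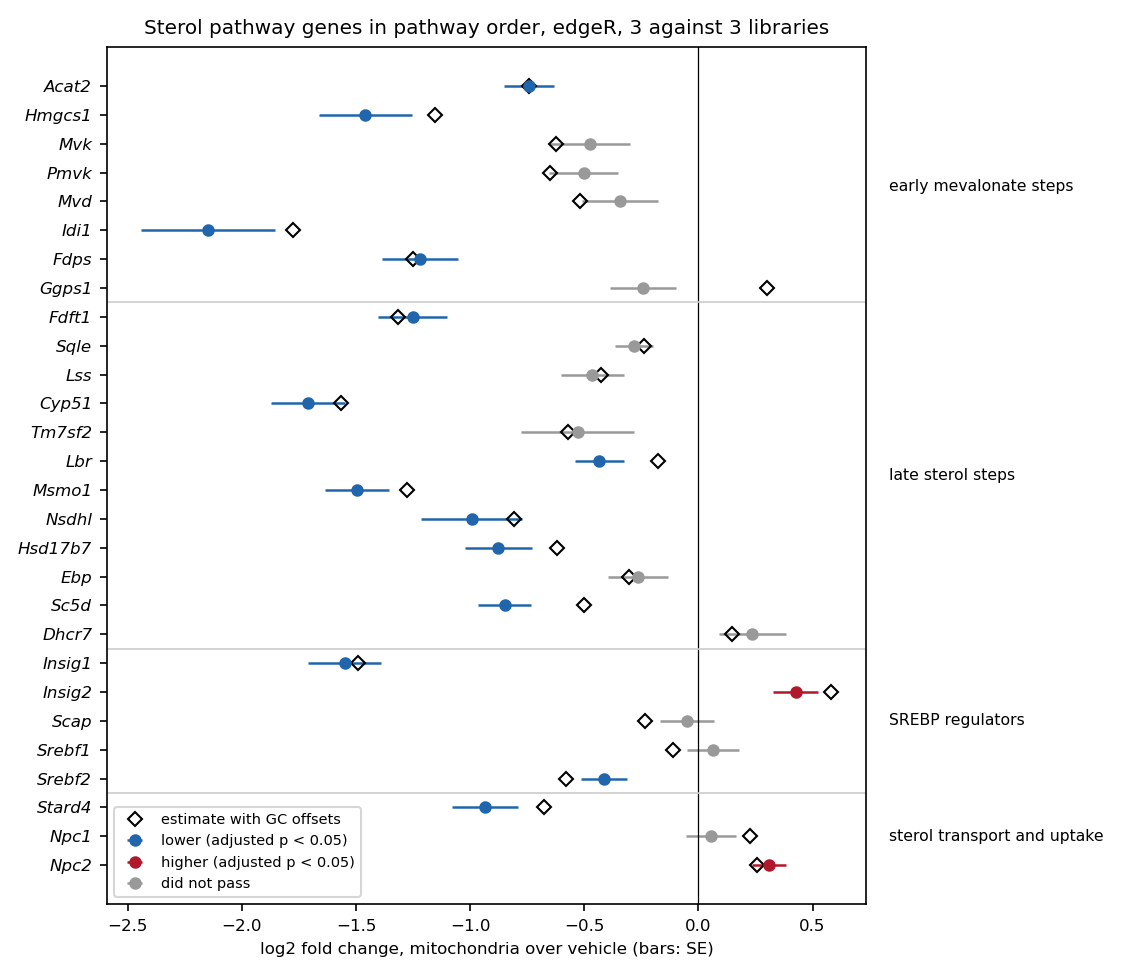
The log2 fold change of mitochondria over vehicle (horizontal axis) for the 28 genes in pathway order, from edgeR on 3 against 3 libraries. Circles are the estimates with their SE as bars, coloured by call, and open diamonds are the estimates with GC offsets. All 14 blue circles lie left of 0, from -2.15 (Idi1) to -0.41 (Srebf2), and the 2 red ones are Insig2 and Npc2.

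The stretches upstream of 4 of the genes that fell are printed to show the letters that SREBPs and their partner NF-Y are known to bind. They come from RefSeq promoters on GRCm38.p6, which were found for 23 of the 28 genes (31 promoters, each from 250 bases before the start to 50 after it). Each stretch ends before the gene start of both RefSeq and the deposited table, and is read 5′ to 3′ on the strand of the gene. Capitals mark CCAAT or its reverse complement ATTGG, the NF-Y letters, and in Hmgcs1 also the sterol regulatory element TCACNCCAC, where N is any base. The places are chr13:119690101-119690350 (+) for Hmgcs1, chr5:4104747-4104947 (-) for Cyp51, chrX:72918271-72918520 (+) for Nsdhl and chr5:28071162-28071362 (+) for Insig1.
Hmgcs1: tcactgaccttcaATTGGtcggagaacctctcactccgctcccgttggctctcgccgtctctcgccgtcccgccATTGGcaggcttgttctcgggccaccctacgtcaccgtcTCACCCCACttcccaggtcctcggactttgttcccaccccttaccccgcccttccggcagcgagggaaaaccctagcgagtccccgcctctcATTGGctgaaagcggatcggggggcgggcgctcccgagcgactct
Cyp51: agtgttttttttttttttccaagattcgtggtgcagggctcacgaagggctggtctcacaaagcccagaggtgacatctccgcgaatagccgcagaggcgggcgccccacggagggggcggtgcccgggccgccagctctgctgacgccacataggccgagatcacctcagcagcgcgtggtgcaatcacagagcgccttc
Nsdhl: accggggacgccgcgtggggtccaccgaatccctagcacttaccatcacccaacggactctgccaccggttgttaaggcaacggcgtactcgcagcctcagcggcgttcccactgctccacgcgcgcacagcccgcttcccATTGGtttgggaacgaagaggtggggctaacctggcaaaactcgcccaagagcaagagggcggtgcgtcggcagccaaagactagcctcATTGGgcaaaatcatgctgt
Insig1: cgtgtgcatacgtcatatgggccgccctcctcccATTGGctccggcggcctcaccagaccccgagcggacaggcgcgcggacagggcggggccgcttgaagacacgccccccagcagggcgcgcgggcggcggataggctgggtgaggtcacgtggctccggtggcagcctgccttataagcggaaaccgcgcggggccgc
The Hmgcs1 stretch held 3 NF-Y matches and the 1 sterol element, Nsdhl held 2 NF-Y matches and Insig1 held 1. The Cyp51 stretch held no exact match to either, and its 1 NF-Y match lay 29 bases before the RefSeq start, beyond the end of the stretch. Only these exact letters were searched, so a sterol element with other letters would be missed.

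On either strand, CCAAT was found for 10 of the 11 genes that fell and had a promoter in the table, and for 9 of the 10 such genes that did not pass, some of which have several promoters. Counted by gene in the same way, it was found for 5017 of 11787 genes tested and for 497 of 1095 genes called lower. Counted by promoter, it was found in 10 of 11 for the genes that fell, 10 of 16 for those that did not pass and 2 of 4 for those that rose. By promoter the background was 37.4% of all 32851 promoters of the same length and 39.1% of those of all genes called lower. The sterol element TCACNCCAC was found in 1 of the 31 promoters, that of Hmgcs1, against 1.24% of all promoters. The GC box GGGCGG, the letters of the SREBP partner Sp1, was found in 25 of the 31 promoters, against 35.7% of all promoters and 59.7% of those of genes tested. These are exact matches of letters, which may overlap one another, in a window that was not assayed for binding.

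In the early steps 4 of 8 enzymes fell and none rose, with a median log2 fold change of -0.62. At an unadjusted p under 0.05, edgeR also gave 0 higher and 6 lower, and DESeq2 called 0 higher and 5 lower. Over all genes tested DESeq2 called 12.6% lower (2175 genes) and 1687 genes higher. The share of all genes at an unadjusted p under 0.05 is not given here. In 6 of the 8 the groups did not overlap. Acat2, which joins acetyl-CoA units in the cytosol, stood at 28.7, 32.9 and 30.8 CPM with vehicle and at 17.5, 18.7 and 19.0 CPM with mitochondria. All 3 mitochondria libraries lay in a narrow band below the vehicle libraries. The log2 fold change was -0.74 ± 0.11 (SE; edgeR adjusted p = 0.0066).

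Hmgcs1, which forms HMG-CoA (ENSMUSG00000093930, chr13:119690379-119708260 on GRCm38), was at 63.2, 94.9 and 89.7 CPM with vehicle and at 22.4, 33.5 and 34.3 CPM with mitochondria. The highest mitochondria library stood well below the lowest vehicle library, and replicate 1 was the lowest of its group in both arms. Its log2 fold change was -1.46 ± 0.20 (SE; edgeR adjusted p = 0.0054).

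Between Hmgcs1 and Idi1 lie the kinases and the decarboxylase of mevalonate, which did not pass. Mvk, mevalonate kinase, had means of 24.4 ± 3.50 CPM in the vehicle libraries and 17.5 ± 3.43 CPM in the others (SD, n = 3 each), a log2 difference of -0.47 ± 0.17 (SE; edgeR adjusted p = 0.10). Pmvk, phosphomevalonate kinase, differed by -0.50 ± 0.15 on the log2 scale (edgeR adjusted p = 0.060), and Mvd, the decarboxylase, by -0.35 ± 0.17 (edgeR adjusted p = 0.19). The groups overlapped for Mvk and Mvd and did not for Pmvk. Pmvk was called lower in 5 of the 16 alternative fits, DESeq2 included, Mvk in 2 and Mvd in 1. Without mitochondria 1 Mvk stood at -0.61 (edgeR adjusted p = 0.044). With GC offsets all 3 were called lower, which made 7 of the 8 early enzymes lower and 1, Ggps1, higher.

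The largest fold change among the 28 genes in the edgeR fit was that of Idi1, the isomerase that interconverts the isoprenoid building blocks (ENSMUSG00000058258, chr13:8885501-8892451). Its vehicle libraries held 21.9, 36.8 and 30.8 CPM and its mitochondria libraries 4.07, 8.77 and 7.37 CPM. No mitochondria library came near the lowest vehicle library. The gene fell 4.43-fold, a log2 fold change of -2.15 ± 0.29 (SE; edgeR adjusted p = 0.0052). Idi1 shares 684 bases at 100% identity with the gene model Gm13502 (1.26 CPM). It also shares 681 bases at 97.7% with the model Gm35570, for which no level was available. The Idi1 counts are uncertain to that extent.

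Fdps, which makes farnesyl diphosphate, was at 38.5, 56.8 and 55.3 CPM with vehicle and at 24.2, 19.3 and 21.2 CPM with mitochondria. The groups stood apart, with vehicle 1 the nearest to the mitochondria libraries. It fell 2.33-fold, a log2 fold change of -1.22 ± 0.17 (SE; edgeR adjusted p = 0.0052). Of its exonic bases 26.7% are also annotated to the same-strand model Gm43738, so reads there could be assigned to either.

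Ggps1 makes geranylgeranyl diphosphate, a lipid for attachment to proteins, and stands on a branch away from sterols. It was at 42.0, 42.2 and 40.035 CPM with vehicle and at 27.6, 39.2 and 38.2 CPM with mitochondria. Only mitochondria 1 lay far from the other 5 libraries, although the groups did not overlap. Its log2 difference was -0.24 ± 0.14 (SE; edgeR adjusted p = 0.28). With GC offsets its estimate changed sign to 0.30 (edgeR adjusted p = 0.037).

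In the late steps 7 of 12 enzymes fell and none rose, with a median log2 fold change of -0.69, and in 10 of the 12 the groups did not overlap. At an unadjusted p under 0.05, edgeR gave 9 lower and 0 higher, as did the adjusted calls of DESeq2, which called 12.6% of all genes tested lower. Without vehicle 2 or without vehicle 3, 4 of the 12 were called lower. Fdft1, squalene synthase, which commits the pathway to sterols, was at 41.3, 59.1 and 58.5 CPM with vehicle and at 23.7, 21.8 and 21.2 CPM with mitochondria. The mitochondria libraries were close to one another and all below vehicle. The gene fell 2.38-fold, by 1.25 on the log2 scale (SE 0.15; edgeR adjusted p = 0.0042). The exons of Fdft1 share 774 bases with the antisense gene Ctsb (887 CPM), and the labels do not state strand, so part of its counts could be Ctsb reads.

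Sqle, squalene epoxidase, and Lss, lanosterol synthase, did not pass, and their groups did not overlap. Sqle was at 108.6, 101.4 and 104.3 CPM with vehicle and at 88.3, 84.9 and 85.5 CPM with mitochondria. Each group was tight and the difference small, -0.28 ± 0.08 on the log2 scale (SE; edgeR adjusted p = 0.054). Lss differed by -0.47 ± 0.14 on the log2 scale (SE; edgeR adjusted p = 0.055). Sqle was called lower in 7 of the 16 alternative fits, that without mitochondria 1 (-0.30) included, and Lss in 5, that without vehicle 1 (-0.59) included.

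Cyp51, which takes a methyl group from lanosterol (ENSMUSG00000001467, chr5:4081145-4104746), was at 61.1, 88.8 and 93.1 CPM with vehicle. With mitochondria it was at 23.2, 26.2 and 24.7 CPM. The gap between the groups was wider than the spread within either. Cyp51 fell 3.27-fold, a log2 fold change of -1.71 ± 0.16 (SE; edgeR adjusted p = 0.0031).

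The next reduction can be made by either of 2 enzymes. Lbr, which is also the lamin B receptor of the nuclear envelope, was at 34.5, 32.8 and 35.2 CPM with vehicle and at 25.3, 23.3 and 27.3 CPM with mitochondria, with no overlap. It fell by 0.43 on the log2 scale (SE 0.11; edgeR adjusted p = 0.030). The call held in 8 of 16 alternatives and among the single-library omissions only without mitochondria 1; leaving out any other library gave -0.49 to -0.38 with edgeR adjusted p from 0.061 to 0.14. With GC offsets the value was -0.18 (edgeR adjusted p = 0.36). Tm7sf2 was lower in abundance, at 4.87 ± 1.06 and 3.38 ± 0.700 CPM (SD, n = 3 each), and its difference of -0.53 ± 0.25 (SE; edgeR adjusted p = 0.18) did not pass.

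Msmo1, Nsdhl and Hsd17b7 act together to remove the remaining methyl groups, and all 3 fell. Msmo1 (ENSMUSG00000031604, chr8:64718139-64733792) was at 53.3, 70.9 and 61.8 CPM with vehicle and at 19.1, 23.5 and 23.4 CPM with mitochondria, a log2 fold change of -1.49 ± 0.14 (SE; edgeR adjusted p = 0.0031). Nsdhl was at 12.5, 20.0 and 22.4 CPM with vehicle and at 10.4, 7.93 and 9.24 CPM with mitochondria, a log2 fold change of -0.99 ± 0.22 (SE; edgeR adjusted p = 0.022). Hsd17b7 was at 49.7, 55.7 and 54.4 CPM with vehicle and at 22.9, 31.1 and 33.1 CPM with mitochondria, a log2 fold change of -0.88 ± 0.15 (SE; edgeR adjusted p = 0.0093). No group pair overlapped, but vehicle 1 of Nsdhl lay just above mitochondria 1. The Nsdhl call was lost without vehicle 2 (-0.93), vehicle 3 (-0.82), mitochondria 2 (-0.90) or mitochondria 3 (-0.997), and the Hsd17b7 call without vehicle 2 (-0.85) or vehicle 3 (-0.86).

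Of the last 3 enzymes, Sc5d, a sterol desaturase, fell. Its libraries held 56.5, 71.6 and 66.5 CPM with vehicle and 34.1, 37.4 and 36.5 CPM with mitochondria. The groups did not overlap, and the log2 fold change was -0.85 ± 0.11 (SE; edgeR adjusted p = 0.0051). With GC offsets the value was -0.50 and still passed. Ebp, the sterol isomerase, differed by -0.26 ± 0.13 on the log2 scale (edgeR adjusted p = 0.21). Dhcr7, a reductase of the final steps, was the only enzyme of the 20 with an estimate above 0 in this fit, at 0.24 ± 0.15 (SE; edgeR adjusted p = 0.31), and its groups overlapped.

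**Figure D2:**
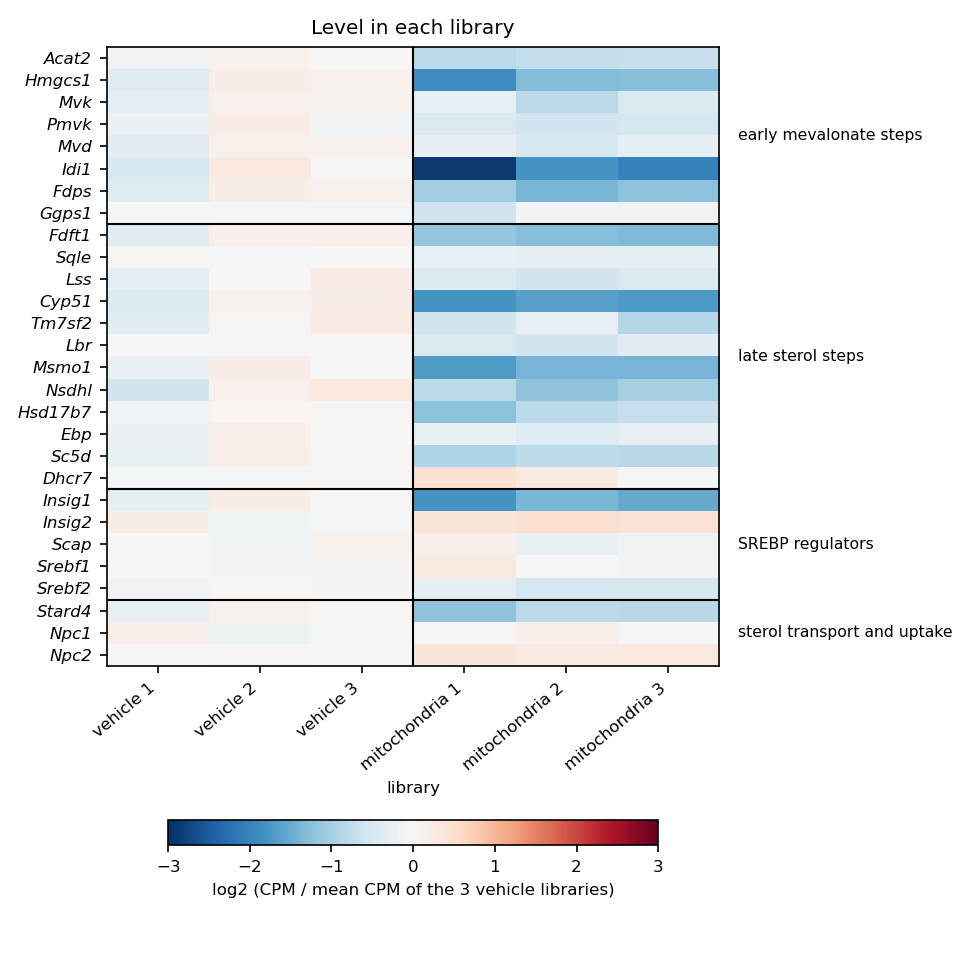
Level of each of the 28 genes (rows, pathway order) in each of the 6 libraries (columns), as log2 of the CPM over the mean CPM of the 3 vehicle libraries. Blue is below that mean and red above it. The deep blue rows with mitochondria are Idi1, Cyp51, Hmgcs1, Msmo1 and Insig1, and vehicle 1 is paler blue in many of the same rows.

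The regulators moved in both directions, with 2 lower, 1 higher and 2 that did not pass, and a median log2 fold change of -0.05. Insig1 (ENSMUSG00000045294, chr5:28071363-28078662), whose protein retains SCAP, was at 38.4, 53.7 and 45.8 CPM with vehicle and at 13.4, 17.6 and 16.1 CPM with mitochondria. All mitochondria libraries stood well below vehicle, and the log2 fold change was -1.55 ± 0.16 (SE; edgeR adjusted p = 0.0031). Insig2 (ENSMUSG00000003721, chr1:121304353-121332589), which shares that role but is known not to need SREBP for its transcription, was at 178.9, 146.6 and 152.8 CPM with vehicle and at 204.0, 221.8 and 216.7 CPM with mitochondria. Here every mitochondria library was the higher, and the log2 fold change was 0.43 ± 0.10 (SE; edgeR adjusted p = 0.024). The Insig2 call was lost without vehicle 2 (0.37), vehicle 3 (0.39), mitochondria 2 (0.40) or mitochondria 3 (0.42).

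The log2 ratio of Insig1 to Insig2 CPM within a library was -2.22, -1.45 and -1.74 with vehicle and -3.93, -3.65 and -3.75 with mitochondria. The groups stood apart by -1.98 (means -1.80 ± 0.39 and -3.78 ± 0.14, SD, n = 3 each; exact two-sided permutation test p = 0.10, 0.15 adjusted over 3 ratios). With 3 against 3 libraries 0.10 is the smallest p that this test can give.

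Srebf2 encodes SREBP2, the SREBP most tied to sterol synthesis, and was at 139.7, 153.9 and 158.8 CPM with vehicle and at 125.9, 105.0 and 108.8 CPM with mitochondria. The groups did not overlap and the gene fell by 0.41 on the log2 scale (SE 0.10; edgeR adjusted p = 0.030). Omitting vehicle 2 (-0.40), vehicle 3 (-0.38), mitochondria 2 (-0.36) or mitochondria 3 (-0.39) ended the call. Srebf1, whose products drive mainly fatty acid genes, was at 109.9, 102.4 and 114.5 CPM with vehicle and at 131.7, 107.5 and 102.3 CPM with mitochondria, and the groups overlapped. Its log2 difference was 0.06 ± 0.11 (SE; edgeR adjusted p = 0.75), and that of Scap, the SREBP escort, was -0.05 ± 0.12 (SE; edgeR adjusted p = 0.82). These 2 estimates were near 0 and changed sign between settings.

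The log2 ratio of Srebf1 to Srebf2 was -0.47 ± 0.12 in the vehicle group and 0.00 ± 0.08 in the mitochondria group (SD, n = 3 each; exact two-sided permutation test p = 0.10, 0.15 adjusted over 3 ratios), with no overlap. For Lbr over Tm7sf2 the ratio was 2.83 ± 0.32 and 2.92 ± 0.42 (SD, n = 3 each; exact two-sided permutation test p = 0.80, adjusted 0.80).

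The 3 transport genes gave 1 lower, 1 higher and 1 that did not pass. Stard4, a cytosolic sterol carrier and known SREBP2 target, was at 38.8, 49.6 and 46.8 CPM with vehicle and at 19.6, 25.8 and 25.2 CPM with mitochondria. The groups were well apart, and Stard4 fell 1.91-fold, a log2 fold change of -0.94 ± 0.15 (SE; edgeR adjusted p = 0.0074). Npc2, a lysosomal protein that passes cholesterol to NPC1, was at 474.7, 487.5 and 470.0 CPM with vehicle and at 615.6, 571.8 and 587.9 CPM with mitochondria. All mitochondria libraries were higher, by 0.31 ± 0.07 on the log2 scale (SE; edgeR adjusted p = 0.027), a call lost without any 1 vehicle library (0.30 to 0.32) or without mitochondria 3 (0.31). Npc1 overlapped between groups and differed by 0.05 ± 0.11 (SE; edgeR adjusted p = 0.78).

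**Figure D3:**
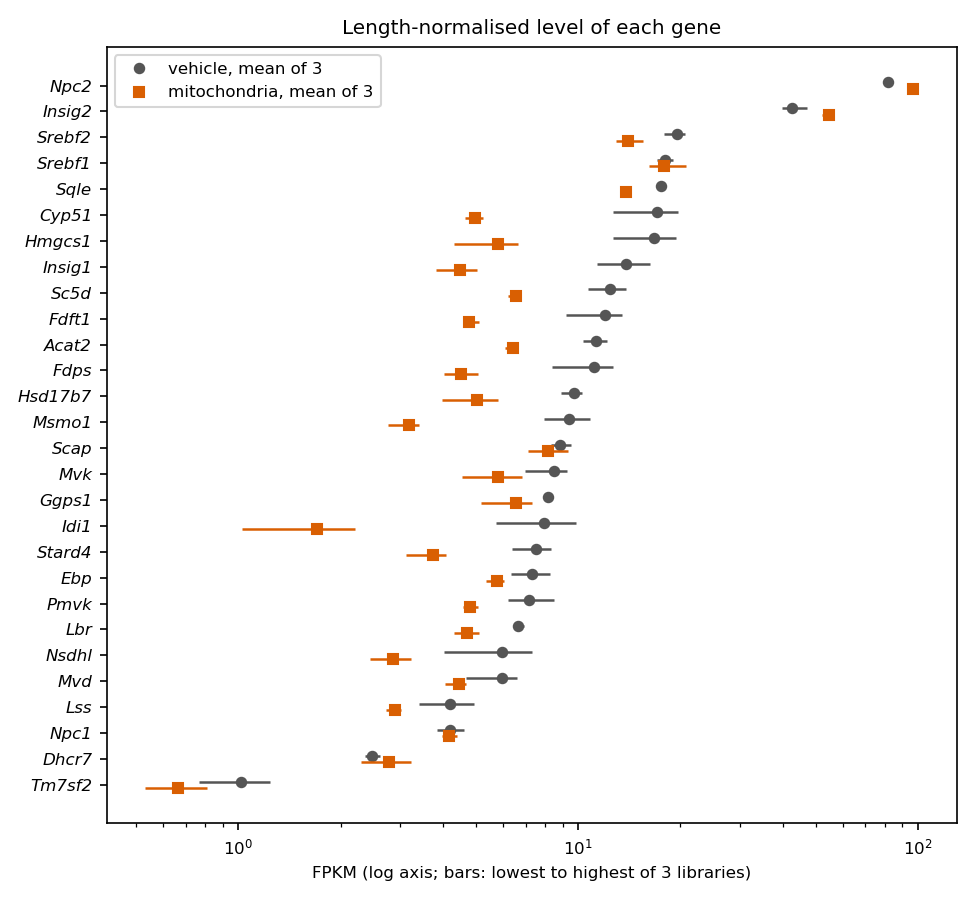
Level per transcript length of the 28 genes, in FPKM (fragments per kilobase and library size, log axis), ordered by the vehicle mean. Points are means of 3 libraries and bars run from the lowest to the highest library. Npc2 and Insig2 are the most abundant in both groups, and Idi1 moves from rank 18 to rank 27.

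Levels of different genes were compared per length, in the deposited FPKM. With vehicle, Npc2 was the most abundant of the 28 (81.7 ± 2.25 FPKM, SD, n = 3), followed by Insig2 (42.7 ± 4.04) and Srebf2 (19.5 ± 1.49). Next came Srebf1 (18.0 ± 0.947), Sqle (17.6 ± 0.394), Cyp51 (17.1 ± 3.84) and Hmgcs1 (16.8 ± 3.63), neighbours whose means differed by less than their spread. At the other end were Dhcr7 (2.47 ± 0.127) and Tm7sf2 (1.02 ± 0.236). With mitochondria Sqle kept rank 5 (13.8 ± 0.295 FPKM), while Cyp51 went from rank 6 to 14 (4.97 ± 0.293) and Insig1 from rank 8 to 19 (4.499 ± 0.615). Sqle had the highest mean FPKM of the 20 enzymes in both groups.

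The FPKM of the 8 early genes summed to 63.1, 87.0 and 80.4 with vehicle and to 38.2, 39.6 and 42.4 with mitochondria. The 12 late genes summed to 90.9, 113.6 and 113.0 with vehicle and to 57.6, 57.4 and 59.0 with mitochondria. Both sums were lower with mitochondria, with no overlap between groups. The 5 regulators summed to 103.0, 101.6 and 104.1 FPKM with vehicle and to 101.5, 98.2 and 98.0 with mitochondria, just short of overlapping. The 3 transport genes summed to 91.1, 96.5 and 92.7 FPKM with vehicle and were higher with mitochondria in every library, at 107.5, 101.3 and 104.6. Most of this sum was Npc2, with means of 81.7 (vehicle) and 96.6 FPKM (mitochondria). Stard4 went from 7.51 to 3.74 FPKM and Npc1 from 4.19 to 4.16.

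Vehicle 1 was the vehicle library nearest to the mitochondria group. It had the lowest vehicle level in 13 of the 14 genes that fell (92.9%), against 72.9% of the 1463 genes called lower and 37.1% of all genes tested. On the first principal component of all genes, vehicle 1 stood at -30.39 beside -56.75 and -56.36 for the other vehicle libraries, and the mitochondria libraries at 81.44, 27.36 and 34.70. Without vehicle 2, 10 of the 28 genes were called lower, against 1.77% of all genes tested, and without vehicle 3, 10 were, against 1.73%. Under every one of 16 alternative fits, the 6 that each leave out 1 library included, 10 of the 14 kept their call. These were Acat2, Hmgcs1, Idi1, Fdps, Fdft1, Cyp51, Msmo1, Sc5d, Insig1 and Stard4.

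**Figure D4:**
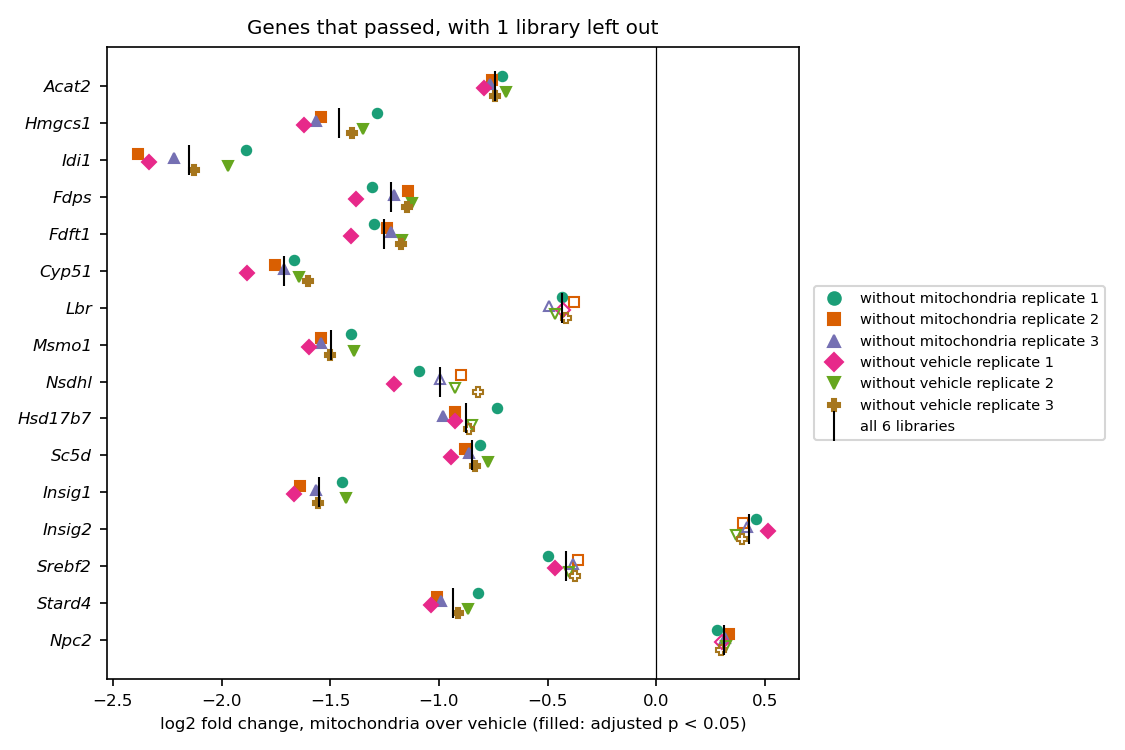
The log2 fold change (horizontal axis) of the 16 genes that passed, with each of the 6 libraries left out in turn. Black lines mark the fit on all 6, filled symbols passed the edgeR test and open ones did not. No symbol crosses 0, and the open symbols belong to Lbr, Nsdhl, Hsd17b7, Insig2, Srebf2 and Npc2.

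The genes had a median GC content of 48.7%, against 49.7% over all genes tested. With an offset for each library fitted on GC content, 18 of the 28 were called lower, against 8.9% of all genes tested, and 3 higher, against 10.8%, with a median log2 fold change of -0.57. Idi1 was then at -1.77, Hmgcs1 at -1.16, Cyp51 at -1.57, Insig1 at -1.49 and Insig2 at 0.58, each still passing. Over all genes the lower calls then numbered 1538 in place of 1463 and the higher calls 1871 in place of 1099, so that 45.1% of the calls were lower, against 57.1% without the offsets.

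Genes around the pathway were taken from named lists, which were also chosen with earlier results of these data known. Over all genes tested edgeR called 8.46% lower and 6.36% higher, and DESeq2 12.6% lower and 1687 genes higher. Of 12 genes of SREBP cleavage and sterol-regulated degradation 0 passed in edgeR, with log2 differences from -0.41 to 0.37. At an unadjusted p under 0.05 there were 2 lower and 2 higher, and DESeq2 called 0 lower and 1 higher (Aup1, named here after its value was seen). The most abundant, Pgrmc1, a heme-binding membrane protein of sterol metabolism, had means of 261 ± 35.8 CPM (vehicle) and 322 ± 35.7 CPM (mitochondria; SD, n = 3 each), 0.30 ± 0.12 on the log2 scale (SE; edgeR adjusted p = 0.13).

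Of 13 genes of the isoprenoid branch 1 fell and 1 rose. Pggt1b, a subunit that attaches geranylgeranyl groups to proteins, fell from 41.1 ± 3.99 to 18.8 ± 5.64 CPM (SD, n = 3 each), a log2 fold change of -1.13 ± 0.21 (SE; edgeR adjusted p = 0.014). Rabggta, a subunit that does so on Rab proteins, rose from 27.9 ± 2.55 to 44.998 ± 4.17 CPM, 0.69 ± 0.12 on the log2 scale (SE; edgeR adjusted p = 0.0098). The other 11 lay between -0.24 and 0.32. Of 13 genes of cholesterol uptake, esterification and transfer 0 passed in edgeR, with log2 differences from -0.67 to 0.31. At an unadjusted p under 0.05 there were 1 lower and 2 higher, and DESeq2 called 1 lower (Mylip) and 1 higher (Scarb1), both named after their values were seen. Lrp1, a large endocytic receptor and the most abundant of them, differed by 0.02 ± 0.12 (SE; edgeR adjusted p = 0.93).

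Fatty acid synthesis, which SREBPs also drive, had 6 of 9 genes lower and 0 higher in edgeR, against 8.46% and 6.36% of all genes tested. The median log2 fold change of the 9 genes was -0.82. At an unadjusted p under 0.05 there were 6 lower and 1 higher (Acss2, 0.44, edgeR adjusted p = 0.064), as in DESeq2. Elovl6, which lengthens fatty acids, fell from 19.7 ± 5.20 to 4.74 ± 1.203 CPM (SD, n = 3 each), a log2 fold change of -2.06 ± 0.26 (SE; edgeR adjusted p = 0.0046). The desaturase Scd1 fell from 286 ± 36.7 to 154 ± 10.1 CPM, by 0.89 on the log2 scale (SE 0.11; edgeR adjusted p = 0.0046). Fads1 and Fads2, desaturases of polyunsaturated fatty acids, had log2 fold changes of -1.23 ± 0.17 and -1.11 ± 0.20 (SE; edgeR adjusted p = 0.0051 and 0.012). The other 2 that fell were Acaca and Fasn, which build the fatty acid chain, named after their values were seen. The 3 that did not pass lay between -0.13 and 0.44.

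Among 5 genes of sterol export and the liver X receptors, 1 fell and 2 rose. Abca1, a cholesterol exporter, fell from 80.4 ± 9.46 to 40.8 ± 5.18 CPM (SD, n = 3 each), a log2 fold change of -0.98 ± 0.13 (SE; edgeR adjusted p = 0.0051). Abcg1, another exporter, rose from 4.46 ± 0.459 to 7.88 ± 1.11 CPM, 0.82 ± 0.18 on the log2 scale (SE; edgeR adjusted p = 0.022). Nr1h2, which encodes a liver X receptor, rose from 72.0 ± 5.84 to 105 ± 16.9 CPM, 0.54 ± 0.13 (SE; edgeR adjusted p = 0.027). Abca1 and Abcg1, both known targets of liver X receptors, thus moved in opposite directions.

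Total deposited counts ran from 63547854 to 66293786 per library. In each, 2.31 to 2.84 times as many genes held 4 counts as the mean number holding 3 or 5. For 1 alternative fit a fragment was taken as worth 4 counts, though this tally cannot tell 4 from 2. Markers of chondrocytes were present, Col2a1 at 1115 ± 90.5 CPM (vehicle) and 1000 ± 136 CPM (mitochondria; SD, n = 3 each), beside fibroblast collagens, Col1a1 at 5578 ± 497 and 5447 ± 614. The 8 chondrocyte markers, of which 2 fell (Col11a1 and Hapln1) and 2 rose (Acan and Sox9), summed to 1825 to 2204 CPM with vehicle and 1484 to 1689 with mitochondria. The 5 fibroblast markers, of which 2 fell (Thy1 and Pdgfra) and 0 rose, summed to 7718 to 8962 and 7302 to 8609 CPM. Macrophage markers (0 of 5 tested passed in edgeR, 2 lower at an unadjusted p under 0.05, 1 lower, Ptprc, in DESeq2) summed to 42.9 to 59.5 and 36.4 to 49.0 CPM. Of those tested 3 had log2 estimates below 0, while Adgre1 (0.95) and Cd68 (0.54) lay above 0 (edgeR adjusted p = 0.17 each). Osteocyte markers summed to 0.282 to 0.855 and 0.357 to 1.29 CPM, with Sost and Dmp1 at 0 in all mitochondria libraries. Phex had means of 0.200 (vehicle) and 0.137 CPM (mitochondria), and Mepe was not in the expression table. Fgf23, the only 1 tested, had means of 0.247 ± 0.121 (vehicle) and 0.628 ± 0.401 CPM (mitochondria; SD, n = 3 each). Its log2 difference of 1.34 did not pass (edgeR adjusted p = 0.25). Adipocyte markers, of which 1 of 4 tested fell (Adipoq), summed to 61.4 to 69.5 and 68.0 to 71.7 CPM, most of it Fabp4 (56.6 ± 4.46 and 63.8 ± 2.15 CPM, SD, n = 3 each), with Lep at 0 in all 6. The part of these cell types in the fall of the sterol genes was not tested.

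Acat2 shares 1477 bases at 97.7% identity with its neighbour Acat3 (4.83 CPM) and 445 bases at 98.7% with Tcp1 (408 CPM), so its counts are uncertain where reads could match either. Tm7sf2 shares 532 exonic bases with Vps51 on the same strand. For Cyp51, Ggps1, Srebf1 and Npc1 between 109 and 511 exonic bases are shared with an expressed gene on the other strand.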

How the data were processed

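Poly(A) RNA of 6 libraries, 3 vehicle and 3 mitochondria, had been sequenced as read pairs, per the labels. The submitters' processing notes name StringTie 1.3.0, Bowtie 0.12.2, HISAT2 2.0 and mm8 as the build, without roles. The coordinates in the deposited table were those of GRCm38: 25914 of 28812 genes have the same start and end in GENCODE M21. The authors' table gives FPKM and estimated counts for each library, the counts as whole numbers already when deposited.

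Genes were kept by filterByExpr (minimum count 10), scaled by TMM and tested two-sided with the edgeR 4.0.16 quasi-likelihood test in R 4.3.3, with group as the only term. CPM use TMM library sizes, and the SE is the log2 fold change over the root of F. The fit was tested on simulated data. Groups come from the labels. The 28 genes and all lists were chosen with earlier results of these data known. All 28 are named, and from each related list up to 4 genes that passed with the smallest adjusted p, or else the most abundant. Alternatives were DESeq2 1.42.0, relative log expression and upper-quartile scaling, no filter, a minimum count of 40, counts divided by 4, limma 3.58.1 on log2(FPKM + 0.1) and log2(FPKM + 1) for a mean FPKM of at least 0.5, GC offsets (lowess span 0.3), a replicate block and each library left out. Motifs were searched on both strands of RefSeq promoters (GRCm38.p6), and shared sequence is at least 95% identity over at least 200 bases of GENCODE transcripts. Protein sequences and a genome were not used here.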

Additional observations from a re-analysis of the deposited data

How the results depend on the processing

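Over all genes tested, 1.73% to 13.2% were called lower in the 16 alternatives, against 8.46% with edgeR and TMM on all libraries. Of the 28 genes, between 10 and 18 were called lower in these alternatives, against 14. The number higher was 2, against 6.36% of all genes tested. It was 3 with GC offsets, against 10.8% of all genes tested, and 1 with limma at either pseudocount. It was 0 with no filter on low counts (2 at an unadjusted p under 0.05 in edgeR) and 0 to 2 with 1 library left out. Over all genes 2562 were called, 3862 with DESeq2, 864 with no filter and 442 to 2780 with 1 library left out. With GC offsets 1538 genes were lower and 1871 higher, against 1463 and 1099, so that the lower share of the calls went from 57.1% to 45.1% because more genes were called higher, and the median log2 fold change of all genes was 0.034. DESeq2 gave no adjusted p for 1348 genes.

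Estimates that changed sign were those of genes that did not pass. Ggps1 was 0.30 with GC offsets. Scap was 0.012 with upper-quartile scaling and reached 0.032 with 1 library left out (from -0.163). Srebf1 was -0.012 and -0.011 with limma at pseudocounts of 0.1 and 1, -0.11 with GC offsets and -0.054 to 0.135 with 1 library left out. Npc1 was -0.010 and -0.009 with limma and -0.016 to 0.138 with 1 library left out. The difference in the Lbr to Tm7sf2 ratio ran from -0.115 to 0.30. The cause was not tested.

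The labels do not say whether the replicate numbers pair the libraries. Deviations of same-numbered libraries correlated at 0.0371, 0.00907 and -0.0152, and those of the others at -0.0314 to 0.0257. With 3 libraries per group these values cannot show whether libraries were paired. With the replicate block 2284 of 17290 genes were called, 1386 lower (8.02% of those tested) and 898 higher. Of the 28 genes, 13 were then lower and 2 higher. Srebf2 was the gene lost, at -0.42 (edgeR adjusted p = 0.064). The counts may overstate depth. With counts divided by 4, 17 of the 28 were lower, against 11.6% of all genes tested. In that fit 2 of the 28 were higher, against 1264 of 14527 genes tested.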
